A study of Mus musculus with 13 samples.

Results

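The cell cycle genes described here were 52 of the 27998 genes in the count tables, chosen by symbol. Of these, 20 act around DNA synthesis (the S list), 29 act in G2 and mitosis (the G2/M list) and 3 are the D-type cyclins. All 52 were found in every matrix and all 52 passed the filter on low counts. They were followed in 4 classes of cells, namely ventricular cardiomyocytes, atrial cardiomyocytes, endothelium and mesenchyme. The series holds droplet-based single-cell RNA sequencing of wild-type C57Bl/6J mice, without transgene or treatment, made for work on the cardiac conduction system. Embryos without head and limbs were dissociated at E8.5 and E10.5, while later material came from dissected hearts, of embryos of E12.5, E14.5 or E16.5 and of pups 3 days after birth (P3). Of the 10 matrices analysed, 1 came from E8.5, 2 from each stage between E10.5 and E16.5, and 1 from P3, which pooled 2 wells. The series' design text calls the libraries of a stage biological replicates but does not say how many animals each held. The p-values rest on the spread between these libraries, taken over the 4 cell classes together.

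A dividing cell copies its DNA in S phase and separates the copies in mitosis. The D-type cyclins, with the kinases CDK4 and CDK6, release E2F factors from the retinoblastoma proteins, and E2F factors then drive genes of replication such as the Mcm helicase subunits and the E-type cyclins. Genes of G2 and mitosis are held down in resting cells through the CHR element, with the core TTTGAA or TTCGAA, and are driven later in the cycle by MYB and FOXM1 complexes together with the CCAAT-binding factor NF-Y. Mouse cardiomyocytes divide in the embryo and most leave the cycle in the days after birth.

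The S list holds the replicative helicase subunits Mcm2, Mcm3, Mcm4, Mcm5, Mcm6 and Mcm7, the helicase partners Gins2 and Cdc45, the helicase loader Cdc6, the polymerase clamp Pcna, the nucleotide-supplying enzymes Rrm1, Rrm2 and Tyms, the uracil glycosylase Ung, the chromatin factors Hells and Uhrf1, the histone mRNA binding protein Slbp, the cyclins Ccne1 and Ccne2 and the factor E2f1. The G2/M list holds the kinase Cdk1 with its cyclins Ccna2, Ccnb1 and Ccnb2 and its partner Cks2, and the mitotic kinases Aurka, Aurkb, Plk1, Ttk, Bub1 and Bub1b. Cdc20 and Ube2c serve the anaphase-promoting complex, Cenpa, Cenpe, Cenpf and Ndc80 the centromere and kinetochore, and Birc5 and Cdca8 the chromosomal passenger complex. Kif11, Kif22, Kif23, Tpx2, Prc1 and Nusap1 act on the spindle, Ect2 and Anln on the cleavage furrow, and Top2a and Mki67 on mitotic chromosomes.

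RefSeq promoters on GRCm38.p6 were listed for 44 of the 52 members. The 120 bases before the start of 5 of them are printed on the strand of the gene, since they show the searched elements in 3 G2/M and 2 S members, Mcm3 with CCAAT alone. Capitals mark the CHR core (TTTGAA or else TTCGAA), the NF-Y element CCAAT and the E2F-type words TTTCCCGC, TTTGGCGC and TTTCGCGC, on either strand. The stretches lie on the minus strand at chr10:69352913-69353032 for Cdk1, chr11:99024190-99024309 for Top2a, chr4:118437344-118437463 for Cdc20, chr1:128359706-128359825 for Mcm6 and chr1:20820313-20820432 for Mcm3.
Cdk1: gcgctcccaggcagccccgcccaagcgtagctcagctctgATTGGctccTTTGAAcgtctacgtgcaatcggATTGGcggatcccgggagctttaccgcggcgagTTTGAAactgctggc
Top2a: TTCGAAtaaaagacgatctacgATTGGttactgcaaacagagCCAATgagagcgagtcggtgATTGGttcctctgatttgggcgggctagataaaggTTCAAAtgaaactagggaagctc
Cdc20: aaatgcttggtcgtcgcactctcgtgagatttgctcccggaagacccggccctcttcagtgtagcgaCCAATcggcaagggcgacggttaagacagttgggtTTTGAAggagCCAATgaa
Mcm6: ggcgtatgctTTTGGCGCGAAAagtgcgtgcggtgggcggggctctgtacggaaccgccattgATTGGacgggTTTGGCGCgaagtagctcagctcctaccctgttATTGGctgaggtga
Mcm3: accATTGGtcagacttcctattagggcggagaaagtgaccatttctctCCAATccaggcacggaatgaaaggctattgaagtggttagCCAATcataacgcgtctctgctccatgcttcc

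Over the 250 bases before the start, TTTGAA or TTCGAA occurred in 11 of 26 G2/M promoters (42.3%) and 3 of 17 S promoters (17.6%), beside 19.6% of all listed genes. CCAAT occurred in 22 of 26 G2/M promoters (84.6%) and 11 of 17 S promoters (64.7%), beside 37.5% of all genes. The E2F-type words occurred in 6 of 17 S promoters (35.3%), those of Mcm5, Mcm6, Mcm7, Hells, Uhrf1 and Cdc6, and in 1 of 26 G2/M promoters (3.85%), that of Cdk1, beside 1.78% of all genes. In Mcm6 a TTTGGCGC word overlaps a TTTCGCGC word on the other strand. A match is a description of these letters and was not tested as a binding site.

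Barcodes with at least 2000 unique molecular identifiers (UMIs, each standing for 1 captured mRNA molecule) and at least 1% mitochondrial UMIs were kept, 67411 in all, from matrices of 67141166 to 259041468 UMIs. The classes were gated by marker genes alone, in UMIs per 10000 UMIs of the cell. Cardiomyocytes had Tnnt2 at 10 or more and Myl7 or Myl2 at 20 or more. They were called atrial where Myl7 made up at least 0.85 of both light chains together and ventricular where it made up less than 0.75. Endothelium had Cdh5 at 1 or more, mesenchyme had Col1a1 at 2 or more, and cells that passed the gates of 2 classes were left out. The 4 classes held 34635 cells. From E12.5 to E16.5 a library gave 1437 to 3185 ventricular cardiomyocytes, 141 to 319 atrial cardiomyocytes, 368 to 906 endothelial cells and 598 to 1078 mesenchymal cells. In these libraries the median summed level of 6 cardiomyocyte genes was 178 to 220.2 UMIs per 10000 in ventricular cardiomyocytes, 152 to 231 in atrial cardiomyocytes and 2.99 to 4.74 in the other classes. That of 8 endothelial genes was 19.0 to 27.9 in endothelium, and that of 10 mesenchymal genes 27.4 to 107 in mesenchyme, from 27.4 and 27.6 at E12.5 to 104 and 107 at E16.5. Over the 4 classes the erythroid list stood at 19.7 to 22.5 at E12.5 and 11.5 to 15.5 at E16.5, the smooth muscle and pericyte list at 0 to 11.3 and 0 to 7.62, and the epicardial list at 0 to 0.298 and 0, and the part of these lists in the changes below was not tested. The medians of the macrophage and neural lists were 0 in every class of every library. At E8.5 and E10.5 endothelium and mesenchyme come from the whole trunk, and the atrial gate takes any myocardium poor in Myl2. Ventricular cardiomyocytes numbered only 21 and 32 at E10.5, and the 17 of E8.5 were not used. At E10.5 the Col1a1 cut had 289 and 257 barcodes within 1.5-fold of it against 282 and 230 above it.

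The P3 wells stood apart from each other. Well 1 held 3451 ventricular cardiomyocytes with a median of 19242 UMIs and well 2 held 2266 with a median of 10199, at mitochondrial shares of 23.2 and 23.3%. Neither well could be tied to a sample, so that P3 values are given by well, and E8.5 and P3 entered no test. To compare cells of unequal depth, each cell was thinned to 2000 UMIs, which left out no cell. A cell with at least 2 of these UMIs on the G2/M list was called G2/M-positive, and a cell with at least 2 on the S list S-positive. With 2 libraries against 2, the exact permutation test of a share cannot go below p = 0.33, and shares are therefore given per library without a test.

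The share of G2/M-positive ventricular cardiomyocytes stepped down at every stage before birth. It was 85.7 and 75.0% (E10.5), 56.0 and 52.1% (E12.5), 44.8 and 45.3% (E14.5) and 30.4 and 29.3% (E16.5). The libraries of neighbouring stages did not overlap, and the mean fell by 24.2 percentage points from E12.5 to E16.5 (SD of the difference 2.905, n = 2 libraries each). At P3 the share was 3.65% in well 1 and 15.5% in well 2. Barcodes in which globin genes made up at least 50% of UMIs were counted beside them, although young erythroid cells can still divide. Their G2/M-positive share at P3 was 5.86% (exact 95% binomial interval 3.24 to 9.63%, counting error only, 239 barcodes, median 8781 UMIs). These barcodes come from both P3 wells together, and globin takes up most of the UMIs kept by thinning, so that they set no background for either well. The positive ventricular cells of well 1 held 6.13 G2/M UMIs on average and the negative ones 0.103. The globin-rich barcodes gave 14.51 and 12.9% (E12.5), 5.84 and 7.47% (E14.5) and 6.21 and 6.06% (E16.5), at median depths of 11680 to 30569 UMIs, below the ventricular share of every one of these libraries. Without thinning the ventricular shares were 93.0 and 91.2% at E12.5 and 67.7 and 56.7% at E16.5, at median depths of 25908 and 24722 and of 19800 and 14471 UMIs. The median mitochondrial share of ventricular cardiomyocytes went meanwhile from 6.47 and 6.97% at E12.5 to 10.8 and 11.3% at E16.5, and its part in the fall was not tested.

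Atrial cardiomyocytes had fewer positive cells than ventricular ones until E14.5. Their share was 72.8% (E8.5), 54.9 and 42.9% (E10.5), 40.2 and 37.9% (E12.5), 34.6 and 31.9% (E14.5) and 29.7 and 28.0% (E16.5). Atrial and ventricular libraries did not overlap at E10.5, E12.5 or E14.5, whereas at E16.5 their ranges overlapped. The ventricular cells of E10.5 numbered only 21 and 32, and at E8.5 and E10.5 the atrial gate takes any myocardium poor in Myl2. The atrial mean fell by 10.2 percentage points from E12.5 to E16.5 (SD 2.00). Unthinned, the atrial shares were 86.5 and 83.7% at E12.5 and 67.4 and 53.4% at E16.5. At P3 it was 3.49% in well 1 and 11.2% in well 2.

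Endothelium and mesenchyme were mostly G2/M-positive in the trunk and far less so in the heart. The endothelial share was 86.3% (E8.5), 79.96 and 78.0% (E10.5), 36.8 and 34.8% (E12.5), 33.3 and 39.9% (E14.5) and 25.5 and 29.3% (E16.5). The step from E10.5 to E12.5 is also the step from trunk to heart, and stage and tissue cannot be told apart there. Within the heart, the E12.5 endothelial libraries lay inside the range of the E14.5 pair, and the E16.5 pair lay below both. The mesenchymal share was 91.7% (E8.5), 81.7 and 79.0% (E10.5), 37.7 and 39.7% (E12.5), 26.3 and 32.4% (E14.5) and 26.8 and 28.1% (E16.5), with the E16.5 pair inside the range of the E14.5 pair. From E12.5 to E16.5 the means fell by 8.39 points in endothelium (SD 3.11) and 11.3 points in mesenchyme (SD 1.66). The globin-rich barcodes also went down over these stages, from 14.51 and 12.9% to 6.21 and 6.06%, and their part in the falls of any class was not tested. Unthinned, the endothelial shares were 86.7 and 84.8% (E12.5), 69.4 and 67.3% (E14.5) and 61.5 and 56.5% (E16.5), with the E12.5 pair above the E14.5 pair. The unthinned mesenchymal shares were 83.2 and 77.6% (E12.5), 55.4 and 52.8% (E14.5) and 61.2 and 53.7% (E16.5). At P3 the wells were far apart in endothelium, at 10.7% in well 1 and 51.6% in well 2, although the median depths were close (22952 and 22248 UMIs). In mesenchyme the wells stood at 9.71 and 27.2%.

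**Figure D1:**
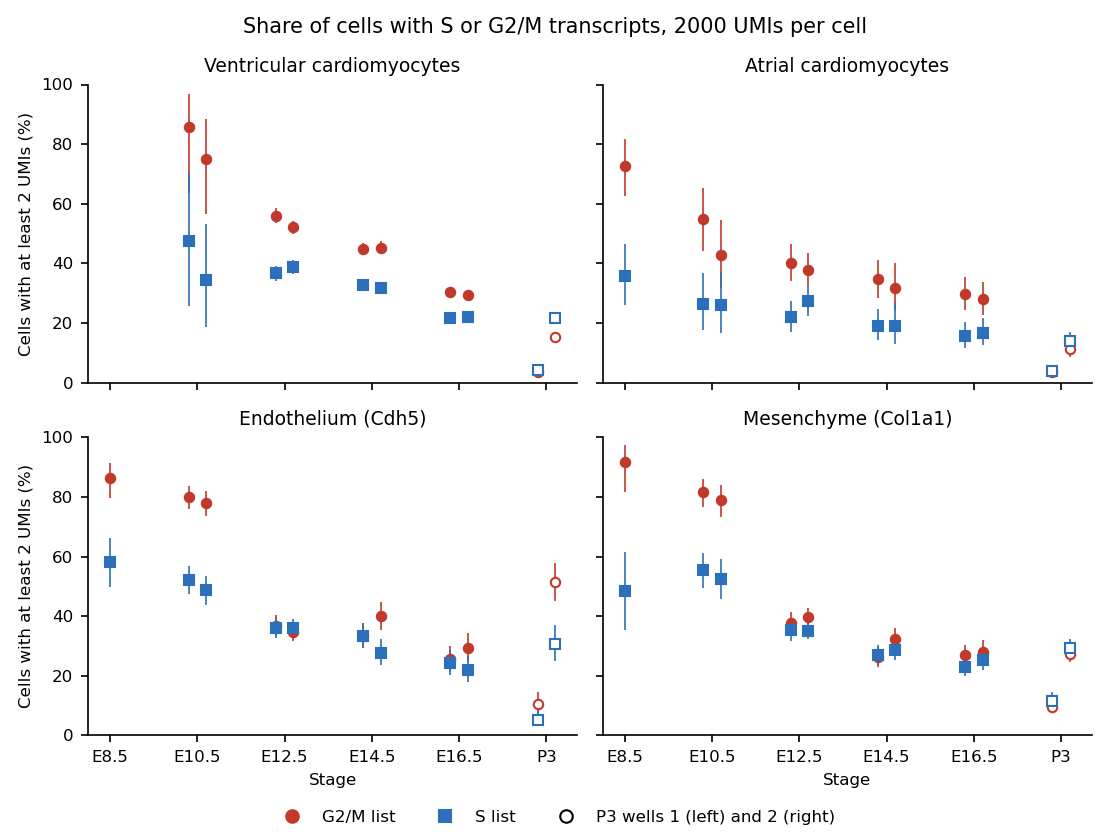
Share of cells (%) with at least 2 UMIs of the G2/M list (red circles) or the S list (blue squares) after thinning to 2000 UMIs, by stage, with 1 point per library, its exact 95% binomial interval and open symbols for the P3 wells. Ventricular G2/M shares step down from 56.0 and 52.1% at E12.5 to 30.4 and 29.3% at E16.5, and well 2 lies above well 1 in every class.

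From E12.5 to E16.5 positive ventricular cells had more G2/M UMIs after thinning at each later stage. Thinned counts are a share of a cell's UMIs and not an amount of mRNA. The median depth of positive cells fell from 27503 and 26388 UMIs at E12.5 to 22067 and 15785 at E16.5. The mean number of G2/M UMIs per positive cell was 7.32 and 7.06 (E12.5), 8.56 and 8.86 (E14.5) and 9.92 and 10.53 (E16.5), without overlap between these stages. At E10.5 it was 8.67 and 5.58, and in the P3 wells 6.13 and 9.90, so that the order did not extend to these stages. The share of ventricular cells with at least 10 G2/M UMIs moved far less than the share of positive cells, at 15.2 and 14.6% (E12.5), 16.4 and 17.6% (E14.5) and 13.1 and 13.2% (E16.5). Most of the fall in positive cells was thus a fall in cells with 2 to 9 G2/M UMIs. Fewer such cells raise the mean per positive cell by themselves, so that no gain of G2/M mRNA in a cell is read from it. Over all ventricular cells the mean was 4.25 and 3.85 (E12.5), 3.99 and 4.17 (E14.5) and 3.16 and 3.23 (E16.5). In mesenchyme the number per positive cell was 9.23 and 8.48 at E12.5 and 10.6 and 11.2 at E16.5, and the share with at least 10 UMIs 13.2 and 13.5% and 12.6 and 14.7%. In atrial cardiomyocytes the number per positive cell was 7.72 and 6.86 and then 9.43 and 9.63. In endothelium alone the libraries of E12.5 and E16.5 overlapped in this measure, at 8.53 and 7.83 against 8.65 and 7.77.

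**Figure D2:**
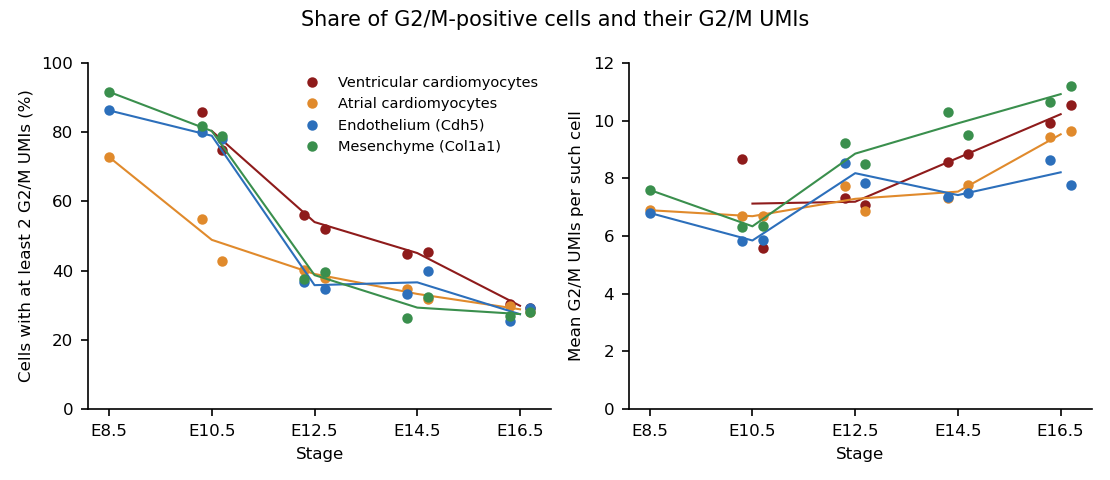
Left, share of G2/M-positive cells (%), and right, mean number of G2/M UMIs per positive cell after thinning to 2000 UMIs, by stage from E8.5 to E16.5, with a point per library, lines through stage means and colours for the 4 classes. The ventricular share drops from E12.5 to E16.5 while the UMIs per positive cell go from 7.32 and 7.06 to 9.92 and 10.53.

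S-positive cells were fewer than G2/M-positive cells among cardiomyocytes of every embryonic library. The cut was the same for both lists, although ventricular cardiomyocytes of E12.5 replicate 1 held 7.85 S and 23.3 G2/M UMIs per 10000. The order of the shares therefore does not tell how many cells were in each phase. In the P3 wells it was the other way, at 4.14 and 21.7% S-positive against 3.65 and 15.5% G2/M-positive ventricular cells. Atrial cells there stood at 3.96 and 13.9% against 3.49 and 11.2%. The ventricular S-positive share was 47.6 and 34.4% (E10.5), 36.7 and 38.8% (E12.5), 32.8 and 31.6% (E14.5) and 21.8 and 21.9% (E16.5), and its mean fell by 15.9 points from E12.5 to E16.5 (SD 1.45). The atrial share was 22.0 and 27.3% (E12.5), 19.0 and 19.1% (E14.5) and 15.6 and 16.8% (E16.5). Endothelium stood at 36.0 and 35.9% (E12.5), 33.3 and 27.8% (E14.5) and 24.3 and 22.0% (E16.5) and mesenchyme at 35.5 and 35.1% (E12.5), 26.8 and 28.5% (E14.5) and 22.9 and 25.3% (E16.5), close to their G2/M-positive shares at E12.5. Cells past the S cut alone made up 12.2 and 14.4% of ventricular cardiomyocytes at E12.5 and 17.8 and 17.9% of endothelial cells. Cells past both cuts made up 24.6 and 24.4% and 18.2 and 18.0%. Without thinning the order of the lists turned in some libraries. The unthinned ventricular S-positive shares were 92.1 and 91.8% at E12.5 and 71.4 and 59.6% at E16.5. The G2/M-positive ones were 93.0 and 91.2% and then 67.7 and 56.7%. Summed over all cells of a class, the ratio of S to G2/M UMIs was 0.337 and 0.416 in ventricular cardiomyocytes at E12.5 and 0.315 and 0.309 at E16.5, and 0.420 and 0.460 and then 0.349 and 0.349 in endothelium. In the P3 wells the ratio was 0.856 and 0.610 in ventricular cardiomyocytes, where the G2/M level was 1.66 and 8.73 UMIs per 10000, and 0.351 and 0.318 in endothelium.

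To find which members changed, UMIs were summed per library and class. Over 14163 genes, the 32 sums entered the quasi-likelihood test of edgeR, with Benjamini-Hochberg adjustment over all genes. The fit took the 32 sums as independent, although the 4 classes of a library come from 1 suspension, so that its p-values can be too small. In such sums fewer positive cells and less mRNA per cell cannot be told apart. Levels below are in CPM, a gene's UMIs scaled to 1000000 UMIs in the sum and not to its length, since the kit reads 3′ ends, whereas log2 changes follow edgeR's TMM scaling, which centres each sum on its other genes. From E12.5 to E16.5 in ventricular cardiomyocytes 24 of 52 members were lower and 5 higher, beside 30.9% of all tested genes lower and 25% higher. The lists differed in make-up. On the S list 16 of 20 were lower and 1, E2f1, was higher, at a median log2 change of -0.48 beside -0.05 over all genes. On the G2/M list 5 of 29 were lower and 4 higher at a median of 0.00. All 3 D-type cyclins were lower. With total UMIs as the only scaling, which moves ventricular log2 changes by -0.17, the G2/M median was -0.16, the S median -0.64 and the members were 31 lower and 1 higher. With the library as a block 10 G2/M members were lower and 5 higher. Each library belongs to 1 stage, so that such a block takes spread between libraries out of the error of a stage change.

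The 5 S members with most UMIs ran from log2 -0.51 to 0.07, inside the range of -0.93 to 0.33 of the whole list. Hells, a chromatin remodeller, stood at 36.9 and 43.0 CPM in ventricular cardiomyocytes at E12.5 and at 23.7 and 26.5 at E16.5 (log2 -0.51, SE 0.09, adjusted p = 2.56e-05). Slbp, which binds histone mRNA, went from 46.9 and 47.0 to 31.9 and 31.8 (log2 -0.39, SE 0.08, adjusted p = 7.66e-05). Pcna, the polymerase clamp, went from 73.7 and 81.2 to 61.5 and 59.8 (log2 -0.18, SE 0.07, adjusted p = 0.0366). These 3 and Rrm1, the large subunit of ribonucleotide reductase, at 78.5 and 81.6 and then 62.6 and 57.5 (log2 -0.25, SE 0.08, adjusted p = 0.0101), fell without overlap of the libraries. Rrm2, the small subunit of the same enzyme, did not pass, at 109 and 115 against 113 and 96.0 (log2 0.07, SE 0.11, adjusted p = 0.615). The widest S falls were those of Gins2 (log2 -0.93, SE 0.09), Ccne1 (-0.92, SE 0.10), Mcm3 (-0.86, SE 0.08) and Mcm4 (-0.83, SE 0.10). E2f1, the factor that drives many of the others, was called higher (log2 0.33, SE 0.11, adjusted p = 0.00929), although its CPM overlapped between the stages (18.0 and 21.8, then 22.9 and 21.6), and it lost its call with total UMIs as the scaling and without E16.5 replicate 1.

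Of the 6 G2/M members with most UMIs, 2 fell in ventricular cardiomyocytes. Ube2c, a ubiquitin carrier of the anaphase-promoting complex, went from 371 and 297 CPM to 221 and 212 (log2 -0.46, SE 0.16, adjusted p = 0.0148). Cenpa, the centromeric histone, went from 234 and 222 to 145 and 146 (log2 -0.48, SE 0.12, adjusted p = 0.000883). The other four did not pass. Cks2 stood at 242 and 197 and then 220.4 and 190.1 (log2 0.07, SE 0.14, adjusted p = 0.7), and Top2a, which untangles sister chromatids, at 172 and 171 and then 147 and 139 (log2 -0.09, SE 0.10, adjusted p = 0.459). Birc5 stood at 173 and 146 and then 127 and 119 (log2 -0.21, SE 0.11, adjusted p = 0.122), and Cenpf at 155 and 127 and then 152 and 164 (log2 0.33, SE 0.14, adjusted p = 0.0521). Mki67, the usual marker of proliferation, was at 77.1 and 72.1 and then 65.7 and 67.3 (log2 0.00, SE 0.09, adjusted p = 1). Cdk1, the kinase that starts mitosis, fell from 89.9 and 69.4 to 60.9 and 52.5 (log2 -0.32, SE 0.14, adjusted p = 0.0477), while its cyclin Ccnb1 stood at 60.3 and 56.5 and then 46.7 and 43.3 (log2 -0.21, SE 0.12, adjusted p = 0.147).

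Of the 29 G2/M members 4 were called higher in ventricular cardiomyocytes, while the spindle and furrow genes Kif22, Kif23, Tpx2 and Ect2 were not. This is a smaller share than the 25% of all genes called higher, and nothing particular to the list is read from it. The 4 were Prc1, which bundles midzone microtubules (log2 0.50, SE 0.13, adjusted p = 0.00122), the spindle protein Nusap1 (log2 0.39, SE 0.12, adjusted p = 0.00428), the spindle motor Kif11 (log2 0.37, SE 0.10, adjusted p = 0.00148) and Anln, which scaffolds the cleavage furrow (log2 0.33, SE 0.08, adjusted p = 0.000791). Prc1 stood at 67.9 and 61.0 CPM at E12.5 and 83.4 and 79.5 at E16.5. The same genes were called higher in atrial cardiomyocytes (log2 0.72, 0.50, 0.45 and 0.56) and in mesenchyme (0.73, 0.65, 0.42 and 0.42), and in endothelium they passed in neither direction (0.14, 0.29, 0.23 and -0.08). In ventricular cardiomyocytes all 4 lost their call when the 5% of cells with most UMIs were left out, where the members were 30 lower and 1 higher, and only Prc1 kept it with total UMIs as the scaling.

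In atrial cardiomyocytes 10 members were lower and 7 higher from E12.5 to E16.5, beside 10.6% of all genes lower and 12% higher. The lower ones were 7 S members (Mcm5, Pcna, Ung, Gins2, Hells, Ccne1 and Slbp) and the 3 D-type cyclins, and the higher ones were 7 G2/M members. The list medians were -0.29 for the S list and 0.30 for the G2/M list, and under the mitochondrial ceilings of the study 0.03 and 0.38. Total UMIs as the only scaling moves atrial log2 changes by -0.16. Ect2, the furrow activator, stood at 18.2 and 17.6 CPM at E12.5 and at 31.7 and 25.8 at E16.5 (log2 0.86, SE 0.18, adjusted p = 0.000368), without overlap. Cenpe, a kinetochore motor (log2 0.59, SE 0.21, adjusted p = 0.0426), and Cks2 (log2 0.44, SE 0.15, adjusted p = 0.0332) were also higher. The members were 13 lower and 3 higher with total UMIs alone, 5 lower and 9 higher under the mitochondrial ceilings of the study and 10 lower and 12 higher with the library as a block. Without E12.5 replicate 1 they were 9 lower and 12 higher, at a G2/M median of 0.42, and without E12.5 replicate 2 7 lower and 2 higher, at a median of 0.09. Without E16.5 replicate 1 they were 9 lower and 4 higher, without E16.5 replicate 2 4 lower and 3 higher, and without the 5% of cells with most UMIs 10 lower and 2 higher.

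Endothelium had the lowest median change on the G2/M list, although with total UMIs alone the ventricular median (-0.16) lay below the endothelial one (-0.12). In endothelium 24 members were lower and 2 higher, beside 20.1% of all genes lower and 19.2% higher. The lower ones included 14 of 20 S and 8 of 29 G2/M members, with medians of -0.48 and -0.21. Rrm2 went from 55.5 and 48.6 CPM to 26.1 and 24.4 (log2 -1.13, SE 0.15, adjusted p = 2.01e-07), and Ccne1, which starts S phase, from 25.7 and 25.6 to 7.34 and 8.399 (log2 -1.81, SE 0.17, adjusted p = 1.17e-10). The 8 lower G2/M members were Cdk1 (log2 -0.71, SE 0.16, adjusted p = 0.000448), Ccna2, Ccnb1 (log2 -0.54, SE 0.18, adjusted p = 0.0181), Ccnb2, Cdca8, Plk1, Ube2c and Ttk. Mki67 went the other way, from 48.46 and 42.7 to 58.7 and 72.7 (log2 0.42, SE 0.11, adjusted p = 0.00221). Without E16.5 replicate 2 the number lower was 15.

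In mesenchyme 11 members were lower and 6 higher, beside 20.7% of all genes lower and 20% higher. All 6 higher members were G2/M genes, namely Mki67 (log2 0.59, SE 0.10, adjusted p = 2.1e-05), Ect2 (log2 0.73, SE 0.17, adjusted p = 0.000558) and Prc1, Nusap1, Kif11 and Anln, while 10 of the 11 lower members were on the S list and the other was Ccnd2. The medians were -0.33 for the S list and 0.06 for the G2/M list. With total UMIs alone the latter was -0.07 and the members were 16 lower and 4 higher, and under the mitochondrial ceilings they were 9 lower and 9 higher. Without E16.5 replicate 1 they were 7 lower and 3 higher. The S members called lower in all 4 classes were Mcm5, Gins2, Hells and Ccne1. The share of all genes lower in all 4 classes was not counted, so that nothing particular to the list is read from this.

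**Figure D3:**
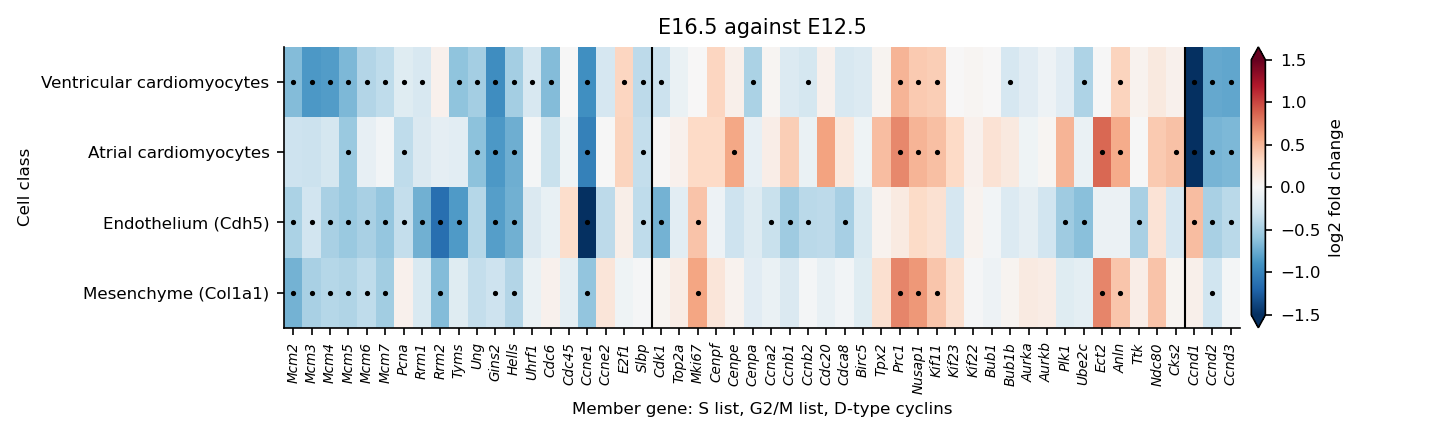
Log2 fold change from E12.5 to E16.5 of each of the 52 members (columns, S list, then G2/M list, then D-type cyclins) in each class (rows), with colours cut at 1.5 in either direction and a dot where the adjusted p of edgeR's quasi-likelihood test was under 0.05. Blue (lower) prevails over the S list in all 4 rows, Prc1, Nusap1, Kif11 and Anln are red (higher) with a dot in all rows but endothelium, where they have no dot and Anln is at -0.08, and Ccnd1 is blue in both cardiomyocyte rows and red in endothelium.

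Neighbouring stages placed the changes in time. Between E12.5 and E14.5 in ventricular cardiomyocytes 14 members were lower and 3 higher (16.6 and 14.2% of all genes). The lower ones were 11 S members, with all 6 Mcm genes, and the 3 D-type cyclins, no G2/M member was lower, and Ccna2, Kif11 and Ect2 were higher (log2 0.21, 0.26 and 0.26). Between E14.5 and E16.5, 16 were lower and 0 higher (19.4 and 16.9% of all genes), the lower ones being 9 S members, the 3 D-type cyclins and the G2/M members Cenpa, Ccnb1, Ube2c and Ect2 (log2 -0.48, -0.35, -0.44 and -0.27). In mesenchyme the first step gave 12 lower and 0 higher (14.9 and 11.4% of all genes) and the second 1 lower and 10 higher (10.1 and 14.1%), the higher ones including Prc1, Ccnd1, Ccne2 and Mki67 (log2 0.84, 0.69, 0.65 and 0.49). In endothelium the steps gave 13 lower and 0 higher (16.7 and 14.1%), then 7 and 2 (6.63 and 8.77%). In atrial cardiomyocytes they gave 3 lower and 0 higher (4.79 and 5.07%), then 4 and 6 (4.14 and 6.15%), with Ndc80 (log2 1.27, SE 0.40, adjusted p = 0.0345) and Tpx2 (log2 1.05, SE 0.24, adjusted p = 0.00257) rising most.

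The step from E10.5 to E12.5 was tested in cardiomyocytes only. In atrial cardiomyocytes 11 members were lower and 5 higher (12.7 and 13.3% of all genes). Of the lower ones 9 were G2/M members, with Ccnb1 (log2 -1.11, SE 0.22, adjusted p = 0.000226) and Cks2 (log2 -1.04, SE 0.16, adjusted p = 6.55e-06) falling most, whereas Mki67 was higher (log2 1.01, SE 0.20, adjusted p = 0.000182). Ventricular cardiomyocytes, at 21 and 32 cells in the E10.5 sums, had 3 members lower and 4 higher (5.15 and 8.3% of all genes). Ccnd2, Ccnb1 and Cks2 were lower (log2 -1.42, -0.90 and -0.67), and Mcm3, Mcm6, Rrm1 and Ccnd1 were higher (log2 1.32, 1.14, 0.96 and 0.59).

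Of the D-type cyclins, Ccnd1 fell in both cardiomyocyte classes from E12.5 to E16.5 and rose in endothelium. In ventricular cardiomyocytes Ccnd1 stood at 66.0 and 48.7 CPM (E10.5), 73.7 and 76.7 (E12.5), 41.8 and 40.6 (E14.5) and 9.61 and 10.3 (E16.5), and at 2.82 and 6.08 in the P3 wells. The libraries from E12.5 on did not overlap between stages (log2 -2.75, SE 0.09, adjusted p = 4.87e-23 from E12.5 to E16.5). In atrial cardiomyocytes it went from 34.7 and 40.8 at E12.5 to 5.28 and 6.25 at E16.5 (log2 -2.57, SE 0.17, adjusted p = 8.72e-14). In endothelium it rose, from 146 and 152 to 214 and 224 (log2 0.46, SE 0.08, adjusted p = 2.25e-05), and the P3 wells held 151 and 467. In mesenchyme it was 203 and 188 (E12.5), 133 and 136 (E14.5) and 186 and 193 (E16.5), lower at E14.5 and back at E16.5 (log2 0.08, SE 0.08, adjusted p = 0.461 from E12.5). At E16.5 Ccnd1 was above its ventricular level by 4.24 on the log2 scale in endothelium and by 4.05 in mesenchyme, against 1.03 and 1.22 at E12.5.

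Ccnd2 and Ccnd3, the other D-type cyclins, fell in both cardiomyocyte classes too, but by less. Ccnd2 drew more UMIs than any other member. In ventricular cardiomyocytes it went from 1504 and 1197 CPM at E10.5 to 438 and 449 at E12.5 and 221 and 244 at E16.5 (log2 -0.77, SE 0.09, adjusted p = 9.87e-09 from E12.5). The atrial level was 593 and 625 and then 333 and 339 (log2 -0.70, SE 0.09, adjusted p = 5.95e-07). Both classes thus fell between E12.5 and E16.5, and Ccnd3 did the same, from 292 and 303 to 150.3 and 159.8 in ventricular cardiomyocytes (log2 -0.78, SE 0.08, adjusted p = 1.45e-09) and from 268 and 275 to 154 and 152 in atrial ones (log2 -0.67, SE 0.09, adjusted p = 7.91e-07). In endothelium Ccnd2 fell (log2 -0.49, SE 0.09, adjusted p = 6.36e-05) and so did Ccnd3 (log2 -0.41, SE 0.09, adjusted p = 0.000285). In mesenchyme Ccnd2 fell (log2 -0.29, SE 0.09, adjusted p = 0.0105), while Ccnd3 stood at 244 and 224 and then 207 and 214 (log2 -0.02, SE 0.09, adjusted p = 0.851).

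**Figure D4:**
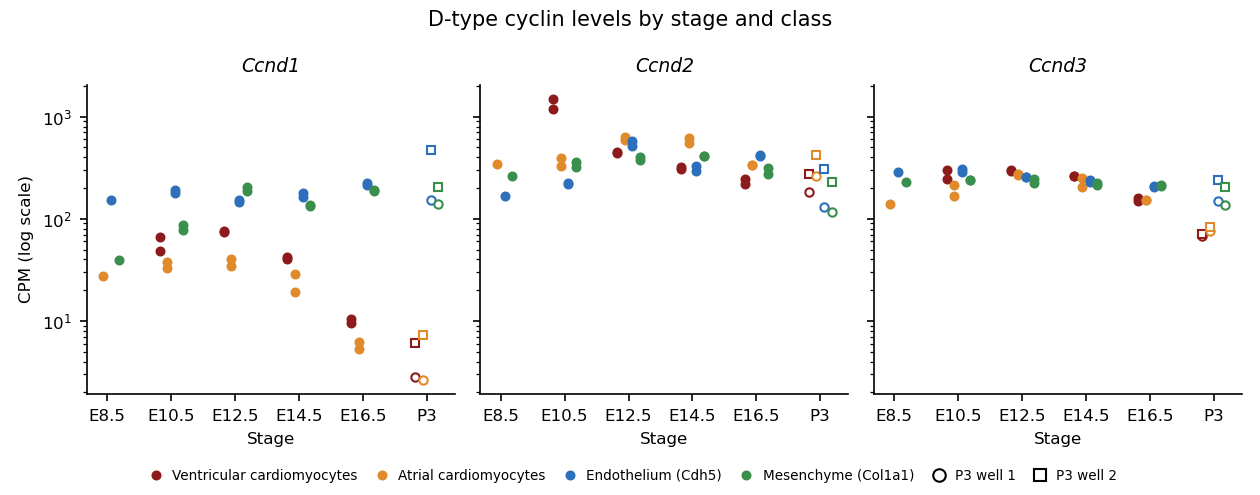
Levels of Ccnd1, Ccnd2 and Ccnd3 (CPM, log axis) by stage, 1 point per library and class, with open circles and squares for P3 wells 1 and 2. At E16.5 Ccnd1 lies at 9.61 and 10.3 in ventricular cardiomyocytes and at 214 and 224 in endothelium, while Ccnd2 and Ccnd3 lie much closer together.

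Whether the change from E12.5 to E16.5 itself differed from that of ventricular cardiomyocytes was tested by an interaction term in the same edgeR fit. For endothelium 5 members had a lower and 4 a higher difference, beside 14.2% of all genes lower and 17.4% higher. Ccnd1 led them (log2 3.21, SE 0.12, adjusted p = 1.43e-20), followed by Rrm2 (log2 -1.20, SE 0.18, adjusted p = 3.49e-06) and Ccne1 (log2 -0.89, SE 0.20, adjusted p = 0.000751). For mesenchyme 1 was lower and 10 were higher, beside 16.1 and 20.2% of all genes, again led by Ccnd1 (log2 2.83, SE 0.12, adjusted p = 2.63e-19). For atrial cardiomyocytes 0 were lower and 2 higher, beside 4.36 and 6.21% of all genes, namely Ect2 (log2 0.86, SE 0.20, adjusted p = 0.00373) and Mcm3 (log2 0.54, SE 0.17, adjusted p = 0.0373). The classes of a library come from 1 cell suspension. With the library as a block the counts were 12 lower and 6 higher for endothelium and 0 lower and 8 higher for atrial cardiomyocytes. With total UMIs alone endothelium had 2 lower and 10 higher. Without E16.5 replicate 1 no atrial member passed, and 1 passed without E12.5 replicate 2, without E16.5 replicate 2 or without either E14.5 library.

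Members were more often lower than higher in atrial compared with ventricular cardiomyocytes at each of the 3 heart stages before birth. At E12.5 43 of 52 were lower and 1 higher, beside 16.1% of all genes lower and 14.4% higher, at a median log2 difference of -0.62 beside -0.01 over all genes. At E14.5 there were 43 and 1 (15.6 and 14.3% of all genes, median -0.76), and at E16.5 there were 24 and 1 (15.2 and 15.3%, median -0.33). Cdc20, the activator of the anaphase-promoting complex, stood at 20.1 and 16.04 CPM in atrial and 39.2 and 35.0 in ventricular cardiomyocytes at E12.5 (log2 -1.20, SE 0.20, adjusted p = 1.06e-05). Rrm2 stood at 52.1 and 45.0 against 122 and 125 at E14.5 (log2 -1.49, SE 0.15, adjusted p = 5.05e-10). In neither case did the libraries overlap. The member that was higher in atrial cells was Ccnd2 each time (log2 0.30, 0.73 and 0.37), and at E16.5 it lost its call when either E16.5 library was left out. At E16.5 the members were 15 lower and 2 higher with total UMIs alone, 15 lower and 0 higher without replicate 1 and 14 lower and 0 higher without replicate 2. They were 38 lower and 1 higher without the filter on low counts, 35 lower and 1 higher with marker panels, 35 lower and 1 higher at 5000 UMIs and 33 lower and 1 higher without E12.5 replicate 1. The E12.5 and E14.5 contrasts were not recomputed under other settings, and no difference between stages is read from these counts.

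Members were called in both directions in endothelium and mesenchyme against ventricular cardiomyocytes, as were large shares of all genes, and nothing particular to the members is read from the counts. In endothelium the members were 22 lower and 15 higher at E12.5 (35.3 and 36.2% of all genes), 25 and 9 at E14.5 (34 and 35%) and 26 and 15 at E16.5 (33.1 and 36.9%). In mesenchyme they were 29 and 10 (33.4 and 37.9%), 30 and 6 (33.2 and 36.8%), and 20 and 13 (33.9 and 39.1%). With total UMIs alone the E16.5 counts were 16 lower and 17 higher in endothelium and 16 lower and 23 higher in mesenchyme. The number higher in endothelium was 8 without E16.5 replicate 1 and 9 without replicate 2.

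Single members are given here as examples, chosen after their values were seen. Anln stood at 11.1 and 14.1 CPM in endothelium and 18.9 and 16.9 in mesenchyme at E16.5, against 36.7 and 30.5 in ventricular and 36.8 and 34.4 in atrial cardiomyocytes (log2 -1.66 and -1.10 from ventricular). Ect2 stood at 9.79 and 7.78 and at 17.4 and 13.96 against 23.7 and 20.5 (log2 -1.53 and -0.67). The spindle checkpoint kinase Bub1b (log2 -1.31 and -0.79) and Rrm2 lay low as well, Rrm2 at 26.1 and 24.4 and at 27.1 and 38.5 against 113 and 96.0 (log2 -2.26 and -1.90). In the other direction, the thymidylate synthase Tyms stood at 49.7 and 42.2 in endothelium and at 53.5 and 55.8 in mesenchyme against 18.0 and 17.5 (log2 1.16 and 1.42). Slbp stood at 74.3 and 66.0 and at 82.8 and 86.5 against 31.9 and 31.8 (log2 0.92 and 1.21), and Hells (log2 0.95 and 0.73) and the passenger kinase Aurkb (log2 0.58 and 0.83) lay high too. Ccnd1, given above, was higher in both classes too. Since large shares of all genes were called in each of these contrasts, nothing particular to the members is read from the directions. No libraries of the values given overlapped between these classes and ventricular cardiomyocytes. The members were chosen by these values and the share of all genes without overlap was not counted, so that nothing is read from this either.

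Free RNA was gauged by a marker that endothelium and mesenchyme should lack. In the heart libraries from E12.5 to E16.5 the ventricular mRNA Myl2 stood at 2.49 to 4.46 UMIs per 10000 in these classes, which is 2.07 to 3.70% of its level in barcodes with at most 100 UMIs. The same percentage of the G2/M level of those barcodes is 0.373 to 0.691 UMIs per 10000, beside 16.2 to 21.5 measured in the classes.

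Regulators of the same pathway that are not members were counted next to the shares over all genes. Of 41 tested pathway genes (of 42 listed), 15 were lower and 10 higher in ventricular cardiomyocytes from E12.5 to E16.5 (30.9 and 25% of all genes), 10 and 9 in atrial cardiomyocytes (10.6 and 12%), 14 and 5 in endothelium (20.1 and 19.2%), and 13 and 8 in mesenchyme (20.7 and 20%). Cdk4, the kinase partner of the D-type cyclins, stood at 375 and 352 CPM in ventricular cardiomyocytes at E12.5 and at 157 and 164 at E16.5, and it fell in all 4 classes (log2 -1.02, -0.69, -1.24 and -0.85 in ventricular, atrial, endothelial and mesenchymal cells). The CDK inhibitors went separate ways. Cdkn1b rose in all 4 classes (log2 1.09, 0.84, 0.91 and 0.56), and so did Cdkn2c (log2 2.02, 2.04, 0.80 and 1.71). In mesenchyme the Cdkn1b libraries overlapped between the stages, at 12.6 and 18.9 CPM (E12.5) and 17.4 and 27.5 (E16.5). Cdkn1c fell in ventricular cardiomyocytes from 806 and 752 to 68.3 and 71.8 (log2 -3.31), and also in atrial cardiomyocytes and endothelium (log2 -1.49 and -2.13), and passed in neither direction in mesenchyme (785 and 648 and then 733 and 677). The retinoblastoma relative Rbl2 rose in both cardiomyocyte classes and in mesenchyme (log2 1.13, 0.91 and 0.68), and Rb1 rose in endothelium (log2 1.63).

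G2/M-positive and G2/M-negative ventricular cardiomyocytes were compared within each library for 12 sarcomere and calcium-handling genes, which the cut did not use. Negative cells had under 2 G2/M UMIs after thinning and could hold such mRNA, since without thinning 93.0 and 91.2% of all ventricular cells passed the cut at E12.5. Both groups of cells share their library, and the ratios are given as a description. At E16.5 there were 968 and 893 positive and 2217 and 2154 negative cells. Myh6, a myosin heavy chain, had log2 ratios of positive over negative cells of -0.20 and -0.20 (E12.5), -0.29 and -0.38 (E14.5), -0.44 and -0.40 (E16.5) and -0.55 and -0.40 (P3 wells). For the calcium pump Atp2a2 the ratios were -0.14 and -0.16 at E12.5 and -0.37 and -0.35 at E16.5, and for Pln, which restrains that pump, -0.38 and -0.40 and -0.41 and -0.39. The median over all genes with at least 10 UMIs in each group was 0.03 and 0.04 (E12.5), 0.08 and 0.10 (E16.5) and 0.22 and 0.20 (P3 wells). The positive cells of P3 well 1 numbered 126. Of the 12 genes, 11 lay below 0 in all 6 heart libraries and both wells, and Actn2, the cross-linker of the Z-disc, was the exception. Positive cells of E16.5 were deeper, with medians of 22067 and 15785 against 19078 and 13966 UMIs, and held less mitochondrial RNA, 9.81 and 10.4% against 11.3 and 11.6%, and the part of either in these ratios was not tested.

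Among regulators in the same cells, Foxm1, a driver of G2/M genes, had log2 ratios of 3.35 and 3.55 at E12.5 and 5.01 and 5.16 at E16.5. Since the cells were split by G2/M mRNA, a high ratio of a gene that varies with that list follows from the split itself. Ccnd2 was lower in positive cells, at -0.36 and -0.28 and -0.55 and -0.56, and Ccnd3 at -0.16 and -0.11 and -0.19 and -0.13. The CDK inhibitor Cdkn1a changed sides, with -0.89 and -0.78 (E12.5), -0.30 and -0.54 (E14.5), 0.95 and 0.74 (E16.5) and 1.04 and 1.06 (P3 wells). The related inhibitor Cdkn1b was higher in positive cells throughout, from 0.38 and 0.60 at E12.5 to 0.92 and 0.83 at E16.5.

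**Figure D5:**
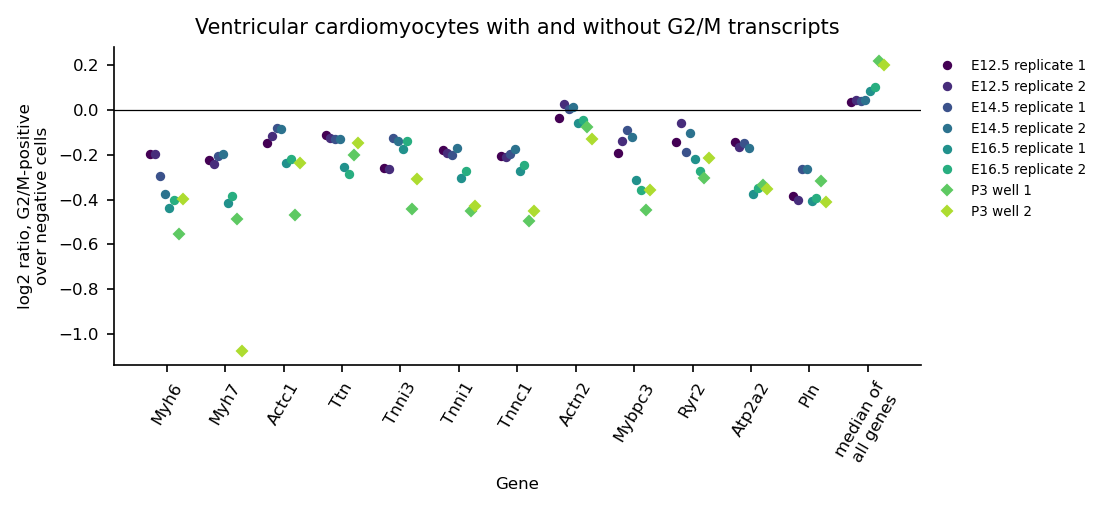
Log2 ratio of each sarcomere or calcium-handling gene in G2/M-positive over G2/M-negative ventricular cardiomyocytes, 1 point per library (diamonds for the P3 wells), with the median over all genes at the right. All points of the single genes but some of Actn2 lie below 0, whereas the medians over all genes lie above 0. For Myh6, Myh7 and Atp2a2 both E16.5 points lie below both E12.5 points.

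At P3 all 52 members were higher in well 2 than in well 1 in ventricular cardiomyocytes. The share of all genes higher in well 2 was not counted, so that nothing particular to the members is read from this. Top2a stood at 8.68 and 62.5 CPM in ventricular cardiomyocytes of wells 1 and 2, Mki67 at 8.05 and 24.0 and Rrm2 at 12.2 and 105. The 12 sarcomere and calcium-handling genes were split, 7 being higher in well 1 and 5 in well 2. The slow myosin Myh7, at 2878 and 588, the giant sarcomere protein Ttn, at 3893 and 2063, and Atp2a2, at 2670.1 and 3773, lay far apart, and the others were closer, such as Tnnc1 at 4444 and 4469.7 and Ryr2 at 587 and 616. In endothelium Top2a stood at 38.5 and 199.6 and the inhibitor Cdkn1a at 679.8 and 185. Beside the E16.5 libraries, Top2a of well 2 was above them in endothelium (156 and 185 at E16.5) and below them in ventricular cardiomyocytes (147 and 139 at E16.5). Since 1 matrix holds both wells, no test was made.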

How the data were processed

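Droplet-based 3′ RNA sequencing was used on single cells of mouse embryos and hearts. The authors deposited raw UMI counts per gene and barcode, with all 737280 possible barcodes of the kit listed in each embryonic matrix, so that cells had to be called from the counts, and 10964 barcodes listed at P3, where the level of free RNA could not be read. Per the file headers the counts came from Cell Ranger 3.0.0 or 3.1.0 on mm10, while the submitters' processing notes name Cell Ranger 2.1.1 and Seurat 3.1.1. The labels give trypsin and the v2 kit, whereas the study's methods give collagenase II and the v3 kit. E16.5 replicate 1 joins 2 sample records, and E8.5 replicate 1 was not analysed here. The 2 wells of the P3 matrix were read from barcode suffixes.

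Barcodes under 2000 UMIs or under 1% mitochondrial UMIs were left out, which kept 67411 of 80741 barcodes of at least 2000 UMIs. Gates were set from the distributions of the marker genes alone, without reading a cell cycle gene, and no clustering was done. Cells that passed the gates of 2 classes were left out as possible doublets, and an alternative also left out the 5% of cells with most UMIs in each library and class. Any 2 libraries shared 0 to 62 barcodes among gated cells, against 0.319 to 56.8 for random draws from the kit's list. The 2 libraries of a stage differed by more than sampling noise in every class (chi-square per degree of freedom 1.67 to 24.8).

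UMIs were summed per library and class (at least 20 cells) and tested in 1 joint fit with edgeR 4.0.16 (quasi-likelihood test, TMM, filterByExpr), with Benjamini-Hochberg adjustment over all 14163 genes at a threshold of 0.05. In a simulation of E16.5 against E12.5 in ventricular cardiomyocytes over as many genes, 175 of 200 genes changed 2-fold were recovered with 21 false calls. These false calls are a larger part of the calls than the threshold of 0.05 aims at. The simulated sums were drawn independently from a common profile with the same setting of spread for every gene. They held no library effect, unlike the data, so that the simulation does not show the error rate in the data. The classes of a library come from the same suspension, and their deviations from the stage means correlated by -0.02 to 0.17 (E10.5), 0.42 to 0.72 (E12.5), -0.06 to 0.32 (E14.5) and 0.19 to 0.39 (E16.5) over 3021 genes. The library entered as a block in an alternative, which for stage changes leaves spread between libraries out of the error. The other alternatives were DESeq2 1.42.0 as the test or as the source of size factors, no filter on low counts, other gates, floors, ceilings, UMI cuts and thinning, and each library left out in turn. The study's mitochondrial ceilings ran from 5 to 20% by stage. Total UMIs as the only scaling was added after seeing the data. Intervals are Clopper-Pearson intervals of shares.

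All 52 members are named. Full statistics are given for the 5 S and 6 G2/M members with most UMIs, the D-type cyclins, Mki67, Top2a, Cdk1 and Ccnb1, for members against the direction of their list, and for the widest differences. The members and lists were chosen with earlier results of these data known. Python 3.11.15, numpy 2.4.6, scipy 1.17.1, pandas 2.3.3, matplotlib 3.10.9 and R 4.3.3 were used.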

Additional observations from a re-analysis of the deposited data

Results flagged for a closer look

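Between E12.5 and E16.5, 22 stage changes of members differed from that of ventricular cardiomyocytes by the interaction term of the edgeR fit. Over all genes 4.36% were lower and 6.21% higher by this term in atrial cardiomyocytes, 14.2 and 17.4% in endothelium and 16.1 and 20.2% in mesenchyme, so the members were not called more often than other genes. The values are differences of log2 changes, the other class minus ventricular cardiomyocytes. In atrial cardiomyocytes they were Ect2 (0.86) and Mcm3 (0.54). In endothelium the change was higher for Ccnd1 (3.21), Mcm3 (0.58), Mki67 (0.42) and Ccnd3 (0.37), and lower for Rrm2 (-1.20), Ccne1 (-0.89), Ttk (-0.54), Rrm1 (-0.48) and Ccna2 (-0.37). In mesenchyme the change was higher for Ccnd1 (2.83), Ccnd3 (0.75), Ect2 (0.73), Cdc6 (0.72), Gins2 (0.63), Mki67 (0.59), Ccnd2 (0.47), Tyms (0.42), Slbp (0.38) and Mcm3 (0.37), and lower for Rrm2 (-0.72). Ccnd1 fell in ventricular cardiomyocytes, rose in endothelium and passed in neither direction in mesenchyme. The difference for Rrm2 lies with a ventricular level that passed in neither direction and a fall in endothelium. No group held the 4 to 10 libraries that a test for outlying libraries needs.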

How the results depend on the processing

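Every fall in the G2/M-positive share from E12.5 to E16.5 kept its direction, while its size moved with several settings. In ventricular, atrial, endothelial and mesenchymal cells in turn the fall was 29.9, 17.5, 12.2 and 16.001 points when thinned to 5000 UMIs and 29.9, 24.7, 26.7 and 22.9 without thinning. Thinned to 1500 nuclear-encoded UMIs it was 18.9, 12.45 and 9.33 in ventricular, atrial and mesenchymal cells. With at least 3 UMIs required it was 19.3, 7.70 and 7.77 in the same classes, and with at least 1 it was 16.7 in endothelium and 14.1 in mesenchyme. It was 27.5 in ventricular cells under the study's mitochondrial ceilings, 12.9 in atrial cells gated by marker panels, 14.3 in atrial cells without the mitochondrial floor and 7.85 in mesenchyme with doubled gates. Leaving out 1 library gave 22.2 to 26.2 in ventricular, 9.10 to 11.3 in atrial, 6.46 to 10.3 in endothelial and 10.3 to 12.2 points in mesenchymal cells.

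Counts of members lower at E16.5, higher than in ventricular cardiomyocytes and differing in their change stayed within 1.5 times in 185 of 210 recounts. The opposite directions were not among these. Over all settings 1 to 7 members were higher at E16.5 in ventricular cardiomyocytes, 2 to 12 in atrial cardiomyocytes, 1 to 3 in endothelium and 3 to 12 in mesenchyme, and 14 to 38 were lower in atrial cardiomyocytes, 16 to 30 in endothelium and 14 to 22 in mesenchyme than in ventricular cardiomyocytes. Total UMIs as the scaling gave 2 members higher in atrial than ventricular cardiomyocytes and 23 higher in mesenchyme. Interactions numbered 15 in endothelium without a filter on low counts. In mesenchyme they numbered 20 with doubled gates and 7 with marker panels. In atrial cardiomyocytes they numbered 6 under the ceilings, with 5 members lower, and 1 with panels, without the mitochondrial floor, at 5000 UMIs or without the 5% of cells with most UMIs. With the library as a block, a pairing that rests on the shared suspension, interactions numbered 8 in atrial cardiomyocytes and 18 in endothelium, and 12 members were higher at E16.5 in atrial cardiomyocytes, while G2/M members lower in ventricular cardiomyocytes numbered 10. Leaving out 1 library gave 17 to 25 members lower at E16.5 in ventricular cardiomyocytes, 4 to 10 in atrial cardiomyocytes, 15 to 25 in endothelium and 7 to 12 in mesenchyme. It gave 0 to 1 members higher in atrial cardiomyocytes, 8 to 15 in endothelium and 10 to 15 in mesenchyme than in ventricular cardiomyocytes at E16.5, and 0 to 3, 6 to 9 and 8 to 12 interactions. Without E16.5 replicate 1 the counts were 7 lower in mesenchyme, 8 higher in endothelium and 0 higher in atrial cardiomyocytes. Without E16.5 replicate 2 they were 4 lower in atrial cardiomyocytes, 15 lower and 9 higher in endothelium and 0 higher in atrial cardiomyocytes. The cause was not tested. Of called changes from E12.5 to E16.5, the stage changes for which other settings were run, 1676 kept their call and 193 lost it over all settings, and none reversed. Atrial cardiomyocytes numbered 141 to 319 cells in a heart library, so that their levels rest on few cells.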
